A study of Mus musculus with 44 samples.

Results

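Ddx58, Ripk2 and Tbk1 are 3 of 21887 protein-coding mouse genes that were set beside 8 ChIP-seq peak lists from bone marrow-derived macrophages. They were chosen by a measured value, the presence of a peak near each in NF-kB lists from cells lacking Dnmt3a, and all peaks within 100 kb of their gene spans were collected. The values of these peaks therefore describe the choice and were not tested. Ddx58 encodes RIG-I, a cytosolic helicase that senses viral RNA, Ripk2 encodes the kinase that carries signals from the peptidoglycan sensors NOD1 and NOD2, and Tbk1 encodes a kinase that phosphorylates IRF3.

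RIG-I signals through the mitochondrial adaptor MAVS to TBK1, which activates IRF3 and with it the interferon genes. RIPK2 is ubiquitinated after NOD receptors bind bacterial cell wall fragments and recruits the TAK1 and IKK kinases that release NF-kB. Toll-like receptor 4, the receptor for lipopolysaccharide (LPS), reaches both transcription factors, using TBK1 for IRF3 and IKK for NF-kB. Dnmt3a is an enzyme that places new methyl groups on cytosine in DNA.

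The series holds 44 samples of C57BL/6 macrophages, wild type (WT) or Dnmt3a knockout (KO), grown from whole marrow with 30 ng/ml M-CSF and 10% fetal calf serum and collected between day 8 and day 10. Chromatin came from untreated cells or from cells given 10 ng/ml LPS for 6 hours, and was sheared to between 100 and 300 bp. The 22 factor samples comprise 10 with an IRF3 antibody and 12 with an NF-kB antibody, and the labels name no NF-kB subunit. The labels do not say how Dnmt3a was deleted or whether replicates came from separate animals. The IRF3 lists merge 3 samples for untreated WT, 2 for WT with LPS, 2 for untreated KO and 3 for KO with LPS, and each NF-kB list merges 3. Because replicates are merged, the lists carry no replicate error, and no difference between them could be tested. The lists also hold no expression values, so neither the deletion nor the cell type could be checked from levels. Of 7 macrophage marker genes (Adgre1, Csf1r, Itgam, Cd68, Lyz2, Mertk and Fcgr1), the Fc receptor gene Fcgr1 had a peak within 10 kb in 7 of the 8 lists, Adgre1 and Mertk had one in 1 list each, and the other 4 had none. The Fcgr1 position was in all 8 lists, and in the IRF3 list of untreated KO it lay just beyond 10 kb, at 10185 bp. Of all protein-coding genes, 8.1% had a peak within 10 kb in at least 1 list.

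In total, 5 peaks lay within 100 kb of the 3 genes, and all 5 lay inside a gene span. Of these, 4 came from the NF-kB list of untreated KO cells and 1 from the NF-kB list of KO cells with LPS. Among all protein-coding genes, 18.4% had a peak within 100 kb in the first of these lists and 15.2% in the second. The other 6 lists, namely all 4 IRF3 lists and both WT NF-kB lists, had no peak within 100 kb of any of the 3 genes. None of the 5 peaks overlapped another, so each formed a region listed in 1 of the 8 lists. The map of peaks around the genes shows these positions by list.

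**Figure D1:**
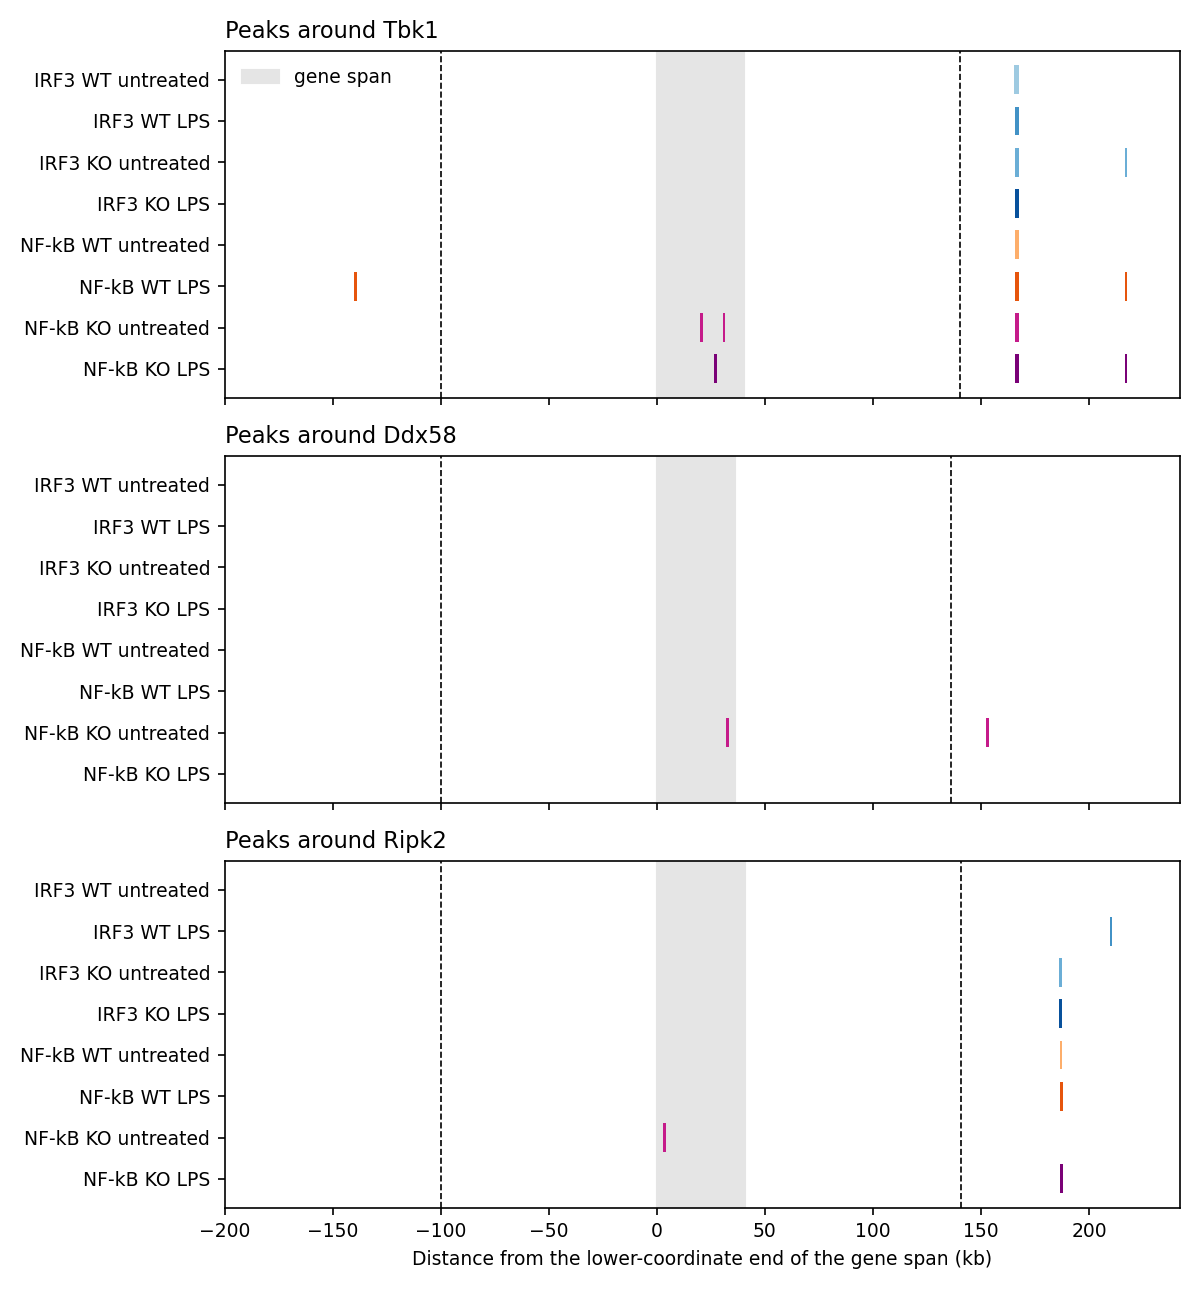
Peaks of the 8 lists around Tbk1, Ddx58 and Ripk2, drawn by distance in kb from the lower-coordinate end of the gene span (grey). Dashed lines mark 100 kb on either side, each bar is 1 peak at its width (bars narrower than 1.2 kb are drawn at 1.2 kb), and the 5 bars inside a gene all belong to the NF-kB lists of KO cells.

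Promoter sequences are shown because IRF3 and NF-kB act through short DNA words and because none of the 5 peaks reached a promoter. The table of RefSeq promoters (GRCm38.p6, the assembly named mm10) matched 2 of the 3 genes, and the 250 bases before the annotated start are printed 5′ to 3′ on the gene's strand. For Tbk1 they lie at chr10:121586795-121587044 on the minus strand, and for Ddx58 at chr4:40239826-40240075 on the minus strand. Capitals mark matches to the words searched.
Ddx58: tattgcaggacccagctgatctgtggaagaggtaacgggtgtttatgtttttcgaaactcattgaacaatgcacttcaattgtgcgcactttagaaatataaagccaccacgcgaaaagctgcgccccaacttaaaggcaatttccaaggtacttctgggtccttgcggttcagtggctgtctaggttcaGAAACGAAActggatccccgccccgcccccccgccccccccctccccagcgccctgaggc
Tbk1: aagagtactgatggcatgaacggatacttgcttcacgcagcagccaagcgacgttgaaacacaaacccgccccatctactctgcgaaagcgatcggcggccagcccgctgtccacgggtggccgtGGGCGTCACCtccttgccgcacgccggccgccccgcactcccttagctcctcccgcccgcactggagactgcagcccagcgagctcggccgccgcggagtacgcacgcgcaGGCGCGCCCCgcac
In Ddx58 the capitals mark GAAACGAAA on the gene's strand, starting 60 bases before the start, a pair of the IRF core repeat GAAA with 1 base between. A pair with that spacing and any base between occurs on either strand in 2.68% of the 32851 promoters of this length. The spacing was chosen after the sequences were seen, so this share does not measure how unusual the match is. In Tbk1 the capitals mark 2 matches to GGG, any 5 bases and CC, starting 125 and 14 bases before the start, the first on the gene's strand and the second on the other. That loose pattern holds the outer bases of a kB site and occurs in 45.8% of promoters, so its presence is common. Neither promoter held a pair of GAAA with 2 bases between, the core of the interferon-stimulated response element, which 2.98% of promoters hold. Neither held GGG, any 2 bases and TTTCC, a stricter kB pattern and a subset of the loose one (1.41% of promoters), the AP-1 word TGANTCA (6.75%) or the ETS word CCGGAA (12%). Both strands were searched for every word, the 2 IRF patterns can overlap where repeats adjoin, and a match is a description of the letters only. The Tbk1 promoter held 31 CpG dinucleotides, the bases that Dnmt3a methylates, which is more than in 94.8% of promoters. The Ddx58 promoter held 12, and the median promoter 6. The methylation libraries were not analysed here.

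Ddx58, the RNA sensor, spans chr4:40203777-40239825, 36049 bp on the minus strand. Its 1 peak was an NF-kB peak of untreated KO cells at chr4:40235761-40236545, 785 bp wide. The peak lay inside the gene, 3280 bp downstream of the annotated start and 3281 bp from the promoter window printed above. With exons not given in the annotation used, an exonic or intronic position cannot be stated. The authors' values for this peak were a signal of 11.5, a p-value of 0.00413 and a q-value of 0.250. It ranked 1030 of 3065 in its list and was the best ranked of the 4 peaks from that list. The median signal of that list was 11.3, so this peak sat near the middle of its list by signal.

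The nearest peaks of the other 7 lists lay 278 kb (NF-kB, WT with LPS) to 770 kb (IRF3, untreated WT) away, with a median of 357 kb. The nearest NF-kB peak in KO with LPS was 279 kb away and overlapped that of WT with LPS. Just outside the 100 kb limit, the untreated KO NF-kB list held a second peak, 212 bp wide and 116 kb from the gene, with a q-value of 0.893. Within 100 kb lie 4 other protein-coding genes, Aco1, Topors, Smim27 and Ndufb6, and no list placed a peak within 10 kb of them.

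Ripk2, the adaptor kinase of NOD signalling, spans chr4:16122732-16163678, 40947 bp. Its strand was not given in the annotation used, so which end holds its start cannot be stated here. Its 1 peak was also an NF-kB peak of untreated KO cells, at chr4:16125603-16126157 and 555 bp wide. The peak began 2871 bp inside the lower-coordinate end of the gene and ended 37521 bp from the higher end. It had a signal of 10.0, a p-value of 0.0124 and a q-value of 0.434, and ranked 1570 of 3065. By signal it exceeded 33.7% of its list, and by width 28.5%.

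No protein-coding gene other than Ripk2 itself lies within 100 kb of it. The next position in the lists lay 145 to 146 kb from the gene, where 5 lists had overlapping peaks between chr4:16308789 and 16310064. These were both KO IRF3 lists, both WT NF-kB lists and the KO NF-kB list with LPS. The untreated KO NF-kB list, which alone held the peak inside Ripk2, was absent there. The IRF3 list of WT with LPS had its nearest peak at 169 kb, and that of untreated WT at 3026 kb, farther than for 77.7% of protein-coding genes.

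Tbk1, the IRF3 kinase, spans chr10:121546455-121586794, 40340 bp on the minus strand, and was the only one of the 3 genes with a peak in more than 1 list. In untreated KO cells it held 2 NF-kB peaks. One was 1462 bp wide, at chr10:121566368-121567829, 18965 bp downstream of the annotated start and close to the middle of the gene. The other was 304 bp wide, at chr10:121576826-121577129, 9665 bp downstream of the start. In KO cells with LPS it held 1 NF-kB peak, 1305 bp wide, at chr10:121572745-121574049, 12745 bp downstream of the start.

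The LPS peak lay between both untreated peaks and overlapped neither. It was 4915 bp from the wider untreated peak and 2776 bp from the narrower. The wide untreated peak had a signal of 10.5, a p-value of 0.0136 and a q-value of 0.458, at rank 1605 of 3065. The narrow one had a signal of 8.85, a p-value of 0.0562 and a q-value of 0.893, at rank 2632. That q-value is the largest in the list and is shared by 544 peaks. The LPS peak had a signal of 10.6, a p-value of 0.0239 and a q-value of 0.587, at rank 1244 of 2376. It was similar in width to the wide untreated peak, and both stood close to the middle of their lists by rank, with 52.3% of peaks ranked better in each.

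Outside the gene, a position 125 kb from Tbk1 between chr10:121711866 and 121714267 was listed in all 8 lists. It supplied the nearest peak in each of the 6 lists without a peak in Tbk1, at distances of 125.07 to 125.50 kb. Within the untreated KO NF-kB list it ranked 258, ahead of both peaks inside Tbk1, and within the KO list with LPS it ranked 1016 against 1244 for the peak inside the gene. The neighbouring gene Xpot lies 586 bp from Tbk1 and lacked a peak within 10 kb in all 8 lists, as did D930020B18Rik. The Xpot span begins at chr10:121587380, so the narrow untreated KO peak in Tbk1, which ends at 121577129, lies just beyond that limit. Rassf3, 70205 bp from Tbk1 on its other side, had one in 1 list.

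**Figure D2:**
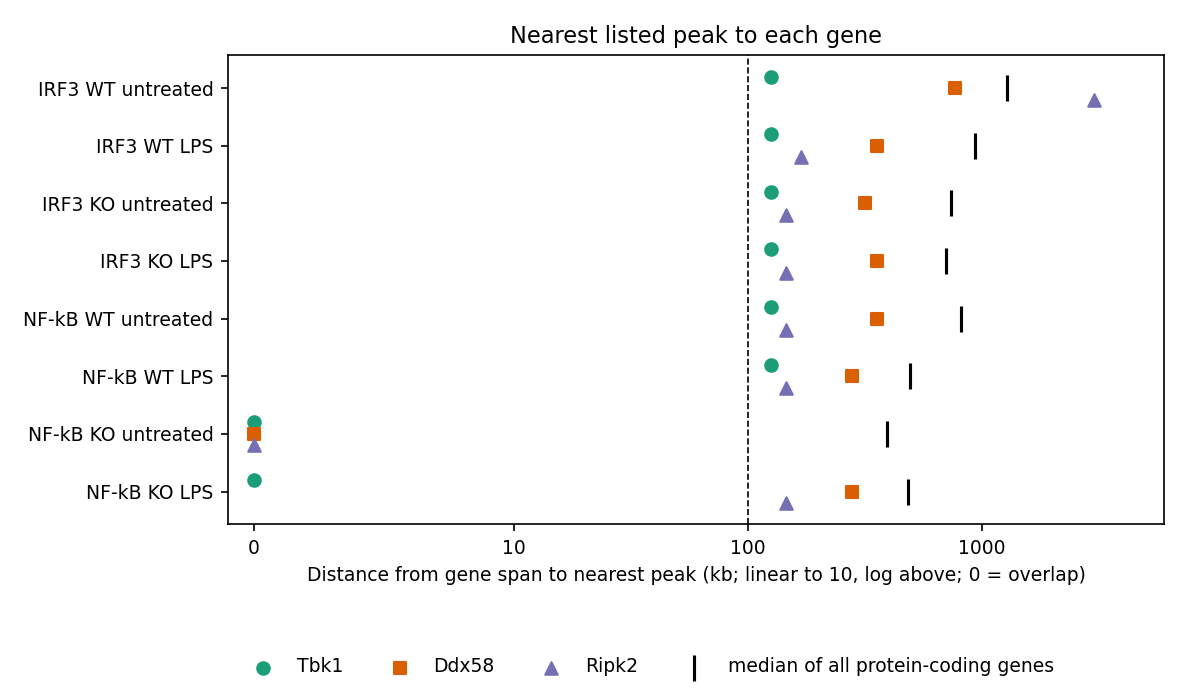
Distance in kb from each gene span to the nearest peak, by list (linear to 10 kb, log above, 0 for a peak that overlaps the gene), with the median over all protein-coding genes as a vertical tick. All 3 genes are at 0 in NF-kB KO untreated, Tbk1 alone is at 0 in NF-kB KO LPS, and every other point lies beyond the dashed 100 kb line.

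Set side by side by genotype, untreated NF-kB peaks lay inside all 3 genes in KO and within 100 kb of none in WT. This pattern chose the genes. Of all protein-coding genes, 10.8% had a peak within 100 kb in untreated KO and none in untreated WT, and 2.03% showed the reverse. Within 10 kb the values were 3.03% and 0.535%. The untreated KO list holds 3065 peaks and the untreated WT list 1462. With LPS, Tbk1 had an NF-kB peak in KO and none in WT, and Ddx58 and Ripk2 had none in either. The share of all genes with an LPS peak in KO and none in WT was not computed. The KO list with LPS had a peak within 100 kb of 15.2% of genes. For NF-kB in WT the background within 100 kb was 15.5% of genes with LPS and 9.62% without.

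The comparison by treatment shares the untreated KO list with that by genotype. Within KO, Ddx58 and Ripk2 had a peak without LPS and none with it, a pattern shown by 8.29% of genes within 100 kb. Tbk1 had peaks in both treatments at different positions. Across the series, 1.94% of genes were overlapped by NF-kB peaks of both KO lists, and 0.146% (32 genes) had both without any of those peaks overlapping each other. Tbk1 is 1 of these 32. Its pair of untreated peaks placed it among the 0.722% of genes with 2 or more peaks of the untreated KO list inside their span. In WT neither treatment gave any NF-kB peak within 100 kb of the 3 genes.

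By factor, none of the 3 genes had an IRF3 peak within 100 kb in any genotype or treatment. In WT the IRF3 lists placed a peak within 100 kb of 6.47% of genes without LPS and 8.51% with it, and in KO of 10.5% and 11%. In all, 70.3% of genes had no peak of either factor within 100 kb. With 3 genes, a count of 0 is close to these backgrounds and does not set them apart. The nearest IRF3 peak overall was the one 125 kb from Tbk1 in untreated WT.

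By the authors' own p-values the 5 peaks stood behind 33.6 to 85.8% of the peaks of their lists. None had a q-value under 0.05, a level reached by 422 of 3065 peaks in the untreated KO list and by 227 of 2376 in the KO list with LPS. The q-values ran from 0.250 (Ddx58) to 0.893 (the narrow Tbk1 peak). All 5 were listed once among the 8 lists, as were 843 of the 3065 untreated KO NF-kB peaks (27.5%) and 444 of the 2376 with LPS (18.7%). Among those 843 peaks, the Ddx58 peak was outranked by 36, the Ripk2 peak by 156, the wide Tbk1 peak by 165 and the narrow one by 627. The Tbk1 peak with LPS was outranked by 105 of 444. Apart from the narrow Tbk1 peak, all were wider than the median of 410 bp for untreated or 246.5 bp for LPS peaks listed once. The medians over the whole lists were 950 bp for untreated KO and 943.5 bp for KO with LPS. Against these, the Ddx58, Ripk2 and narrow Tbk1 peaks were narrower, and the wide Tbk1 peak and the Tbk1 peak with LPS were wider.

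**Figure D3:**
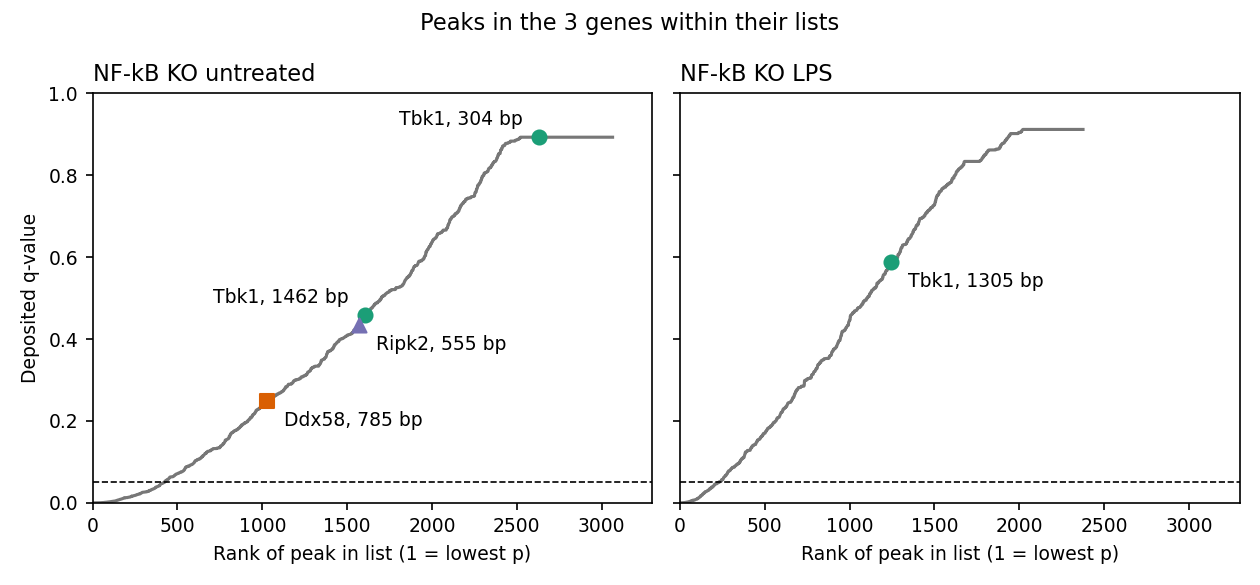
Deposited q-value against rank for all peaks of the NF-kB KO untreated and NF-kB KO LPS lists (grey line), with the 5 peaks inside Ddx58, Ripk2 and Tbk1 marked by gene and width. The dashed line is a q-value of 0.05, and all 5 markers lie above it, between 0.250 and 0.893.

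Peaks inside a gene were a minority of the untreated KO NF-kB list. Of its peaks, 31.5% overlapped a protein-coding gene span, and 31.8% of those listed once did so. Because the 3 genes were chosen for a nearby peak, these shares do not show whether a position inside a gene is unusual. From the side of the genes, 3.55% of protein-coding genes were overlapped by a peak of that list, and 0.562% (123 genes) were overlapped by one and had no peak of the other 7 lists within 100 kb. Ddx58 and Ripk2 are among those 123. All 3 genes are longer than the median gene of 17169 bp and exceed 70.1 to 73.1% of genes in length. The part of gene length in these peaks was not tested.

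Genes on other chromosomes shared each presence pattern. A peak within 100 kb in both KO NF-kB lists and no other, as for Tbk1, was found for 0.612% of genes, 128 of them on other chromosomes. A peak in the untreated KO NF-kB list alone, as for Ddx58 and Ripk2, was found for 3.52%, of which 712 on other chromosomes. Likeness was the mean absolute difference in log10 (distance plus 1 kb) over the lists with a peak, and 19 genes tied with Tbk1 and 113 with Ddx58 and Ripk2 at a difference of 0, over 2 and 1 lists. Ties were ordered by closeness of rank, a step added after the ties were seen. That order gave Erich1, Plcl2 and Rbpj for Tbk1, Isoc1, Stxbp5 and Fat3 for Ddx58, and Pfkfb4, Triml1 and Gm14525 for Ripk2.

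The other genes of the same pathways were taken from 3 lists with 67 genes in all, every one matched in the annotation. In the untreated KO NF-kB list 12 of the 67 had a peak within 100 kb (17.9%), near the 18.4% of all genes, and without the 3 chosen genes 9 of 64 did (14.1%). In untreated WT 5 of the 64 did (7.81%, against 9.62% of all genes). Within 10 kb the untreated KO list reached 3 of the 64 (4.69%, against 4.95% of all genes) and untreated WT none (against 2.45%). With LPS, 3 of the 64 had an NF-kB peak within 10 kb in KO (against 3.97% of all genes) and 3 in WT (against 4.1%). The IRF3 lists reached 1 (untreated) and 0 (LPS) of the 64 in WT, against 1.67 and 2.2% of all genes, and 1 and 2 in KO, against 2.65 and 2.87%. These counts are small and mostly lie near the background.

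Of the 20 RNA and DNA sensing genes, 1 had a peak within 10 kb in at least 1 list, against 8.1% of all protein-coding genes by the same rule. It was Ddx58, which was chosen for its peak. Trim25, which encodes a ubiquitin ligase that activates RIG-I, had peaks 32 kb away in the untreated NF-kB lists of both genotypes and in the IRF3 list of untreated WT.

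Of the 21 genes of the TBK1 module, 2 had a peak within 10 kb in at least 1 list, against the same 8.1%. They were Tbk1, itself chosen for its peaks, and Optn, which encodes optineurin, a ubiquitin-binding partner of TBK1. Optn had a peak 1768 bp away in untreated KO NF-kB, 1340 bp away in untreated WT IRF3 and 1237 bp away in KO LPS IRF3. Their q-values were 0.334, 0.899 and 0.322 in that order. Optn was thus listed for both factors and both genotypes. The WT listing, however, carries the largest q-value of its list, shared by 162 peaks. Azi2, which encodes the TBK1 adaptor NAP1, had a wide peak between 18187 and 19226 bp away in all 8 lists. Ikbke, which encodes the kinase closest to TBK1, had an untreated KO NF-kB peak 27697 bp away (rank 1235, q-value 0.308) and no peak within 100 kb in the other lists. Ifnar2, which encodes a subunit of the type I interferon receptor, had a peak 29770 bp away in the NF-kB list of WT with LPS alone (rank 2448, q-value 0.904).

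Of the 26 genes of NOD and RIPK2 signalling, 6 had a peak within 10 kb in at least 1 list, a larger share than the 8.1% of all genes. Ripk2, chosen for its peak, is 1 of the 6, so the choice itself raises this share. Over all 3 pathway lists, 9 of the 67 genes had such a peak, the chosen genes among them. The gene lists were chosen with earlier results of these data known, and the difference was not tested. Nod1, the receptor gene upstream of Ripk2, had peaks 4121 to 4212 bp away in 5 lists. They were all KO lists of both factors and the NF-kB list of WT with LPS. Map3k7, which encodes the TAK1 kinase downstream of RIPK2, had an untreated KO NF-kB peak inside its span (891 bp wide, rank 2728, q-value 0.893) and no peak of another list within 100 kb, the same pattern as Ripk2. Tnfaip3, which encodes the inhibitor A20, had NF-kB peaks with LPS in both genotypes and none without it. Birc3, a ubiquitin ligase gene, had one in KO with LPS, which also lay 35855 bp from Birc2. Otulin, a deubiquitinase gene, had one 8550 bp away in WT with LPS, at rank 2315 of 2494. Its q-value of 0.904 is the largest in that list and is shared by 398 peaks.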

How the data were processed

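The 8 ChIP-seq peak lists for IRF3 and NF-kB were analysed. The replicates of a group all name a single list, per the labels, so the authors merged them. The authors' deposited p-value and q-value of each peak, and its deposited signal, treated as a score of unstated normalization, were used to describe and rank peaks within a list. Per the submitters' processing notes, the build is mm10, and MACS2 2.1.1 and HOMER 4.9 are among the tools. The names of the lists carry the words chipr and optimal, with no further account of how replicates were merged. The aligner, the peak threshold, the read depth and what the p-value and q-value measure: not given in the sources used here. Hence the precision of a peak's presence is unknown.

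On chromosomes 1 to 19, X and Y, peaks were ranked by p-value, then signal, width and position (Python 3.11.15). Distances ran from the nearer edge of the gene span, 0 meaning overlap. Gene spans came from a GRCm38.p6 table and strand from the RefSeq promoter table. Peaks were joined into regions where they overlapped by at least 1 bp. Background shares are over all 21887 protein-coding genes. The genes and lists were chosen with earlier results of these data known. Genes were named by rule: the 3 chosen genes, any gene nearest to their peaks, pathway genes with a peak within 10 kb, and 3 genes per chosen gene of like pattern. Trim25, Azi2, Ikbke, Ifnar2 and Birc2 fall outside that rule and were named after their values were seen. Tlr7, Tkfc, Tab1, Tab3 and Slc15a3 likewise had peaks only between 10 and 100 kb away and were not described. The protein-coding neighbours within 100 kb of the chosen genes were named outside the rule as well. Of the promoter words, the GAAA pair with 1 base between was chosen after the sequences were seen. Distance, joining and word search were tested on simulated data. The bisulfite and ATAC-seq libraries and the inputs are not analysed here.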

Additional observations from a re-analysis of the deposited data

How the results depend on the processing

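With a window of 10 or 50 kb the number of lists with a peak stayed at 2 for Tbk1, 1 for Ddx58 and 1 for Ripk2. With 250 kb it was 8 for Tbk1, 1 for Ddx58 and 7 for Ripk2, since the positions at 125 kb from Tbk1 and at 145 and 169 kb from Ripk2 then counted. Requiring a q-value under 0.5 left 1 list for Tbk1, 0 of the 3 genes with a peak in KO with LPS, and 3 of the 5 regions, but kept all 3 genes in untreated KO without untreated WT. Reduced to the 1169 best-ranked peaks, the length of the shortest list, the lists kept the Ddx58 peak alone, so Tbk1 and Ripk2 had 0 lists, 1 gene had an untreated peak in KO and not WT at 10 and at 100 kb, and 0 had one in KO with LPS. Among peaks under 500 bp, Tbk1 had 1 list, Ddx58 and Ripk2 had 0, 1 gene had an untreated peak in KO and not WT at 10 and at 100 kb, and 0 had one in KO with LPS. Joining peaks only at an overlap of 100 bp or of 50% of both peaks left 5 regions. No paired analysis was possible because each list merges its replicates, and no replicate was left out for the same reason. Read depth is not given.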
